A study of Mus musculus with 12 samples.

Results

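Imprinted genes were examined in full-thickness mouse colon in which enteric neurons had been removed with diphtheria toxin. The set is a list of 38 genes, chosen by symbol because they are expressed from a single parental allele in at least some mouse tissues, and many of them are also known for high expression in neurons. All 38 were found among the 27179 genes of the expression table. Ablated mice (n = 7 libraries) carried BAF53b-Cre and R26-iDTR, a Cre-dependent gene for the receptor of diphtheria toxin. The BAF53b promoter drives Cre in neurons, so the receptor and with it sensitivity to the toxin are placed in neurons and in any other cell with a history of Cre. Control mice (n = 5 libraries) were littermates with R26-iDTR and no Cre. Both groups had a laparotomy and received 4 µL of diphtheria toxin at 0.33 ng/µL with 10% India ink in the colon wall, so the controls carry the surgery, the toxin and the ink as well. The inked piece of colon was taken for RNA sequencing, and the labels used here give no age, sex or time after the toxin. They do not say that each library is a separate mouse, so p-values here cover only how far these libraries differ among themselves, which may be technical.

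Genomic imprinting marks an allele by DNA methylation laid down in the egg or the sperm, and the mark is kept in the embryo by the zinc finger protein ZFP57 and its partners. Imprinted genes lie in clusters, in which an imprinting control region and often a long noncoding RNA set which parent's copy is active. Many of them act on growth (Igf2, Igf2r, Cdkn1c, Grb10), and others are known from brain disorders of imprinting, such as Ube3a in Angelman syndrome and Ndn and Magel2 in Prader-Willi syndrome. Expression was measured here per gene as TPM, a transcript abundance corrected for gene length and library size. TPM joins both alleles, so parental origin was not measured.

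The libraries held 13.4 to 26.9 M reads assigned to genes. The 13 pan-neuronal markers summed to 24.2 to 48.9 TPM in the ablated libraries and to 112 to 266.5 TPM in the control libraries. All 13 log2 differences, ablated minus control, were negative, and 12 of the 13 had a limma adjusted p under 0.05. The exact permutation p for the mean log2 level of the 13 was 0.00126, the smallest that the 792 splits of 12 libraries allow. The 13 were chosen with earlier results of these data known, so this p adds no support beyond the differences themselves. Markers of colonic tissue were abundant: 6 epithelial markers summed to at least 7495 TPM and 6 smooth muscle markers to at least 6773 TPM in each ablated library. Ablated library 1 was the shallowest and stood apart, with 18.7% of its reads from mitochondrial genes against 3.56% to 10.4% in the 11 other libraries.

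The promoters of the 3 genes with the lowest log2 differences among the 29 genes above the minimum level are shown because each gene is known as paternally expressed and each had lower mean TPM in ablated colon. Each sequence is the 250 bases before a RefSeq start of the gene on GRCm38.p6 (Mest has several starts), read 5′ to 3′ on the gene's own strand. Capitals mark TGCCGC or its reverse complement GCGGCA, the hexamer that ZFP57 binds when it is methylated; both strands were searched. The Nap1l5 window is chr6:58907127-58907376 on the minus strand, the Mest window chr6:30737800-30738049 and the Ndn window chr7:62348027-62348276, the last 2 on the plus strand.
Nap1l5: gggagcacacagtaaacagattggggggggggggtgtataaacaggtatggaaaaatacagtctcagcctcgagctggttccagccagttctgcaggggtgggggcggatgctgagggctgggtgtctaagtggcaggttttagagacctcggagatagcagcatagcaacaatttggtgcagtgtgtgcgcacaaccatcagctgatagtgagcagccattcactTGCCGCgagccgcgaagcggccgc
Mest: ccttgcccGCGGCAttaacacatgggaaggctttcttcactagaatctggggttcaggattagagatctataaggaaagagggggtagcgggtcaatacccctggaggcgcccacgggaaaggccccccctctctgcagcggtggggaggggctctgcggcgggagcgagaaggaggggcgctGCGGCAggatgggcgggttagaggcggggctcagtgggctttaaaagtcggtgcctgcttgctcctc
Ndn: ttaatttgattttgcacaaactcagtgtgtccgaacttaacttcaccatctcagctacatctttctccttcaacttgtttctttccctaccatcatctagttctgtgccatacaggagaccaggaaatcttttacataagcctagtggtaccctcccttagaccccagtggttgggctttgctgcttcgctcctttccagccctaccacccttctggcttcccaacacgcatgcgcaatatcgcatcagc
The Nap1l5 window held 10 CG dinucleotides, the Mest window 14 and the Ndn window 5, with the hexamer in the first pair and not in the window of Ndn. Mest has 2 further windows: chr6:30737803-30738052, which starts 3 bases on from the one shown and holds the same hexamers, and chr6:30733256-30733505, before an upstream start, with 7 CG and no hexamer. RefSeq windows of 32 of the 38 genes were used, 47 windows in all. The other listed genes, Impact among them, were not included, so these counts do not cover the whole list. The hexamer stood in 7 of the 47 windows used (14.9%), both overlapping Mest windows included, and in 8.68% of all 32851 promoter windows. The median number of CG was 10 in the 47 windows used and 6 in all windows. A match is a description of the letters and not of binding, and methylation was not measured.

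Of the 38 imprinted genes, 29 reached 0.5 TPM in at least 5 libraries and were tested, and 9 did not. A single gene was called, Nap1l5, which was lower in ablated colon, and no listed gene was called higher. That is 1 of the 29 tested, where 1.43% of the 16164 genes tested over the whole table were called in either direction, 1.01% lower and 0.421% higher (limma, Benjamini-Hochberg adjusted p under 0.05 over all genes tested). Log2 differences are ablated minus control after adding 0.5 to each TPM, so that changes of low genes come out smaller than they are. They were negative for 12 of the 29 (44.3% of all genes tested had a negative one) and positive for 17, with a median of 0.05, beside 0.03 over all genes tested. In 25 of the 29 the difference was under 0.5 in either direction, as it was in 90.8% of all genes tested, and in 25 its 95% interval included 0. An unadjusted p under 0.05 was found for 4 (Nap1l5, Ndn, Mest and Phlda2), against 11.8% of all genes tested. The genes that passed the minimum may have done so through the group in which they are high, so these counts describe the tested genes and not the whole list.

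**Figure D1:**
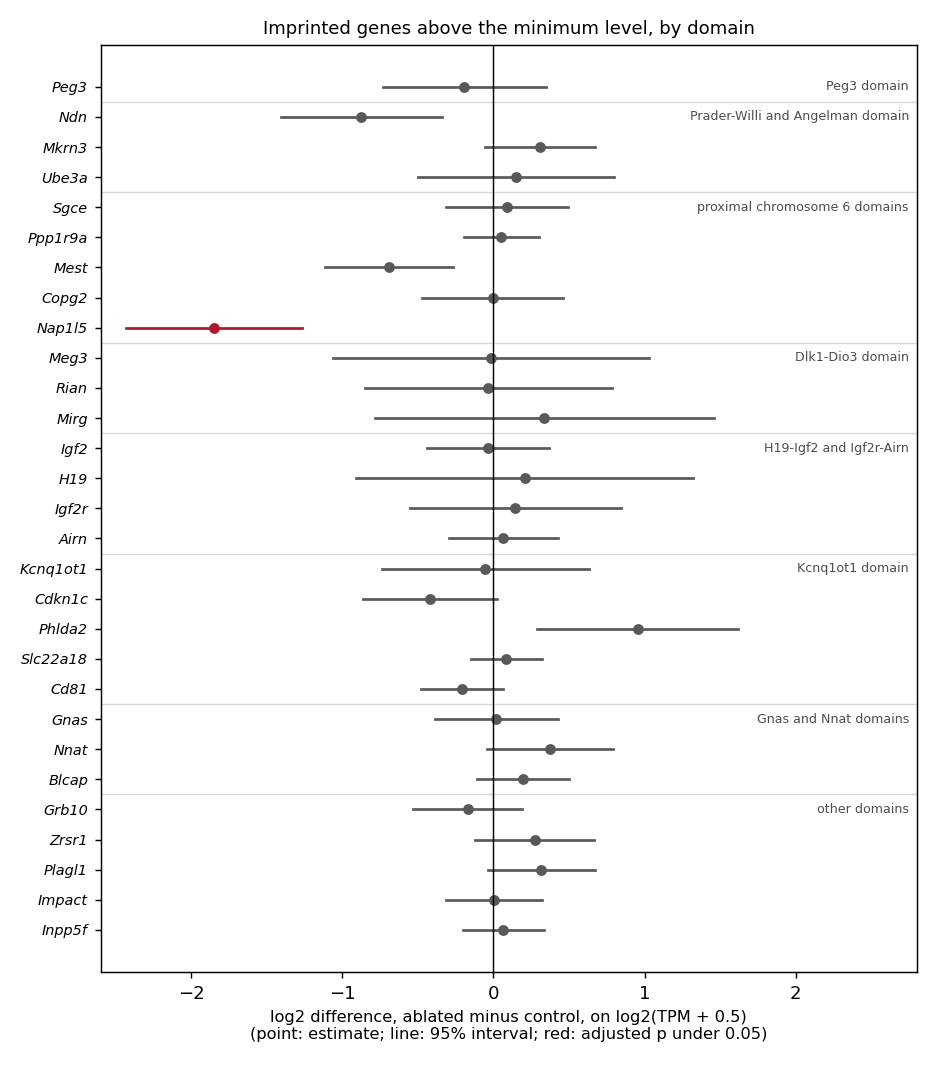
Log2 difference (ablated minus control, on log2(TPM + 0.5)) of each of the 29 tested imprinted genes, with its 95% interval from limma; the genes run down the page by domain. The interval of Nap1l5 lies furthest to the left, at -2.43 to -1.27, and 25 of the 29 intervals cross 0.

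Nap1l5 is a small retrogene of the nucleosome assembly protein family, paternally expressed and best known from brain. It lies at chr6:58905233-58907126 on the minus strand, inside the ubiquitin ligase gene Herc3 on the opposite strand and overlapping none of its exons. In the 7 ablated libraries it had 1.02, 3.33, 1.94, 1.75, 2.41, 2.06 and 1.48 TPM. In the 5 control libraries it had 5.44, 14.5, 11.1, 5.76 and 7.10 TPM. Every ablated library was below every control library, and Nap1l5 was the only one of the 29 tested genes whose groups did not overlap (of all genes tested 1.55% lay wholly lower and 1.33% wholly higher, 2.88% together). The means were 2.0 ± 0.73 TPM in ablated colon (SD, n = 7) and 8.80 ± 3.93 TPM in control colon (SD, n = 5), 22.7% of the control mean. The values rest on 326 reads in ablated and 1035 reads in control libraries. The log2 difference was -1.85 (95% interval -2.43 to -1.27), with a limma adjusted p of 0.00284. By size it was 35th of the 163 genes called lower. In bulk tissue, fewer cells of a type and less RNA per cell cannot be told apart.

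Nap1l5 moved with the neuronal markers, which were at 2.20% (Calb2, a calcium-binding protein) to 37.3% (Elavl3, a neuronal RNA-binding protein) of their control means; Elavl3 was the only one of the 13 not called, with a limma adjusted p of 0.0992. A pan-neuronal score was taken as the mean of the 13 markers' log2 levels, each centred on its own mean over the 12 libraries. The log2 level of Nap1l5 minus this score was 0.40 higher in ablated than in control colon, with an exact two-sided permutation p of 0.0391 over 792 splits. The ranges of the ablated and control libraries overlapped. Because of the centring, this compares libraries and says nothing of the level of Nap1l5 against that of the markers. The permutation p also depends on the markers listed, which were chosen with earlier results of these data known. Their log2 differences ran from -4.64 (Calb2) to -0.92 (Elavl3), with a median of -2.07, beside -1.85 for Nap1l5. The p therefore cannot decide whether Nap1l5 fell less than neuronal RNA did. The library with the most Nap1l5 in each group, ablated library 2 and control library 2, also had the highest marker sum of its group. Markers of glia and Schwann cells moved in both directions, and none of 7 was called. The 7 summed to 27.3 to 101.5 TPM in ablated and to 38.8 to 53.0 TPM in control libraries, and the highest was at 168% of its control mean. Their score, made like the pan-neuronal one, was -0.53 to 0.085 in ablated and 0.073 to 0.417 in control libraries. Of their log2 differences 6 were negative and 1 was positive (median -0.57), and 3 markers had an unadjusted p under 0.05. These were Fabp7, a fatty acid binding protein (29.0% of the control mean, limma adjusted p 0.0536, and 0.0424 with no minimum level), the calcium-binding protein S100b (41.1%, limma adjusted p 0.0703) and the filament protein Gfap (49.0%, limma adjusted p 0.216). For Fabp7 the other alternatives are not given. The part of neurons and of glia in the difference of Nap1l5 was not tested.

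**Figure D2:**
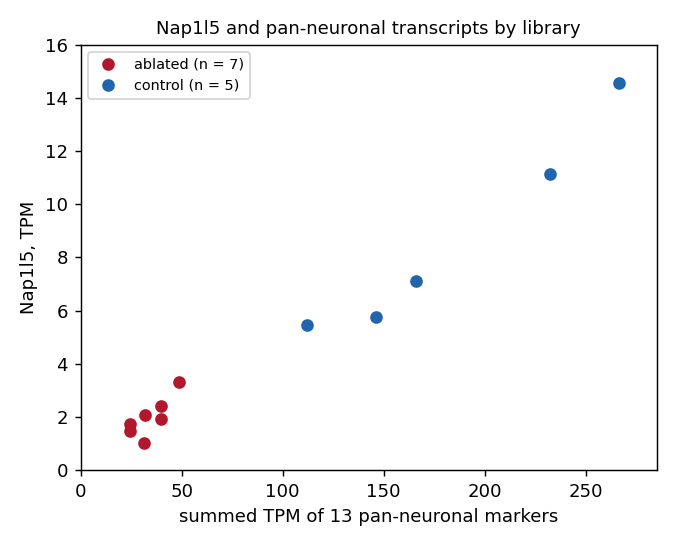
Nap1l5 TPM (vertical axis) against the summed TPM of the 13 pan-neuronal markers (horizontal axis), with 1 point per library. The 7 ablated libraries lie at 1.02 to 3.33 TPM of Nap1l5 and sums of 24.2 to 48.9 TPM, and the 5 control libraries at 5.44 to 14.5 TPM and sums of 112 to 266.5 TPM.

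The host gene Herc3 had 7.66 ± 2.49 TPM in ablated and 6.03 ± 0.476 TPM in control colon, with a limma adjusted p of 0.748. The ratio of Nap1l5 to Herc3 TPM was 0.145 to 0.562 in ablated libraries (median 0.282) and 0.907 to 2.76 in control libraries (median 1.13), with no overlap. Within the nucleosome assembly family, Nap1l5 was the only one called of 5 tested genes. The ubiquitous histone chaperone Nap1l1 averaged 51.7 ± 10.3 TPM in ablated and 57.1 ± 7.74 TPM in control colon, and its paralog Nap1l4 80.7 ± 21.3 TPM in ablated and 77.9 ± 6.63 TPM in control colon. The neuronal paralog Nap1l2 was below the minimum, at 0.131 ± 0.0404 TPM in ablated and 0.448 ± 0.133 TPM in control colon (29 and 70 reads), and its ranges, 0.0957 to 0.191 TPM in ablated and 0.263 to 0.630 TPM in control libraries, did not overlap; with no minimum level its limma adjusted p was 0.00666.

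In the Prader-Willi and Angelman domain on chromosome 7, 3 of 5 genes were tested and none was called. Ndn encodes necdin, a MAGE family protein of postmitotic neurons that restrains cell division. Its lowest, median and highest levels were 4.77, 7.70 and 12.7 TPM in ablated libraries, and it had 11.8, 19.7, 20.02, 10.9 and 12.8 TPM in the control libraries. Of the ablated libraries, 2 reached into the control range. The means were 8.12 ± 2.92 and 15.0 ± 4.45 TPM in ablated and control colon (SD, n = 7 and 5), and the log2 difference was -0.88 (95% interval -1.41 to -0.34) with a limma adjusted p of 0.128. Its limma adjusted p was 0.0210 with a weight per library and 0.00814 with the smooth muscle score as a covariate (added after the data were seen), and the range over all 26 alternatives was 0.00814 to 0.373.

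Ube3a, the ubiquitin ligase that is maternally expressed in neurons, was at 8.52, 11.0 and 35.0 TPM (lowest, median and highest) in ablated libraries and at 9.52 to 15.2 TPM in control libraries, with a difference of 0.15. Its highest value was that of ablated library 1, without which the ablated mean was 11.8 ± 3.35 TPM, against 12.3 ± 2.56 TPM in controls. Mkrn3, a zinc finger protein known as a brake on puberty, averaged 0.929 ± 0.218 TPM in ablated and 0.659 ± 0.196 TPM in control colon; 5 of 7 ablated libraries were above the highest control, and its limma adjusted p was 0.531. Magel2, another MAGE family gene, and Snrpn, a spliceosome subunit, were listed at 0 in all 12 libraries. Snurf, which shares exons with Snrpn on the same strand, was listed at 0 as well, so the zeros of Snrpn and Snurf may not be levels. Magel2 had no exon overlap on either strand, and the source of its zeros was not tested. The MAGE family as a whole had 6 tested genes and none called; 5 of the 6 log2 differences were negative (median -0.23). After Ndn they were -0.27 for Mageh1, -0.27 for Magee1, -0.18 for Nsmce3 and -0.01 for Maged2, and that of Maged1 was 0.06.

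**Figure D3:**
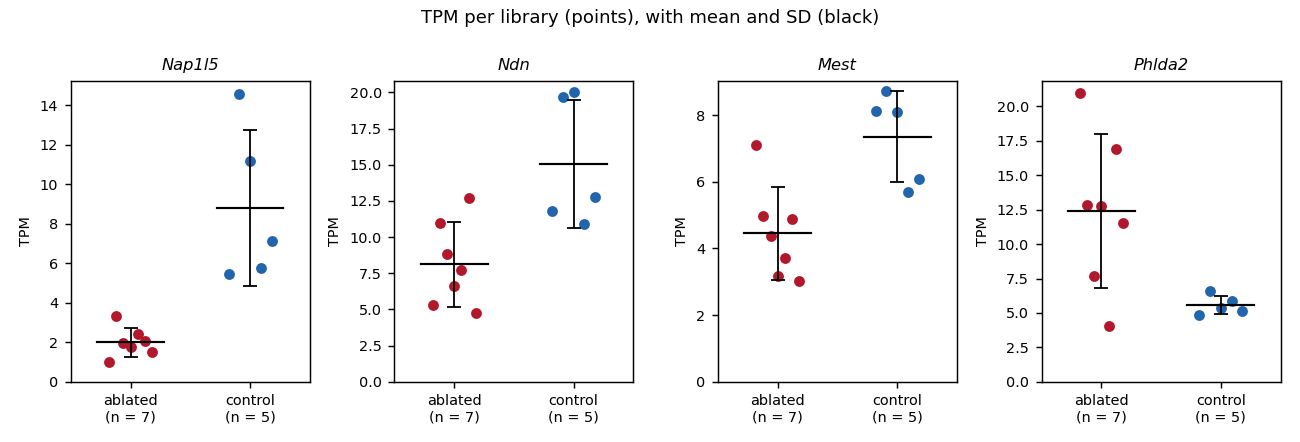
TPM of the 4 imprinted genes with an unadjusted p under 0.05 (Nap1l5, Ndn, Mest and Phlda2), with 1 point per library and the group mean with its SD in black. The ablated points of Nap1l5 all lie below the control points, whereas those of Ndn, Mest and Phlda2 overlap with them.

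On proximal chromosome 6, 5 of 7 genes were tested and Nap1l5 was the only one called. Mest, an alpha/beta hydrolase fold protein of mesoderm that is paternally expressed, had 3.01, 4.37 and 7.11 TPM (lowest, median and highest) in ablated libraries. Its control levels were 8.14, 8.74, 8.10, 5.70 and 6.09 TPM. The ablated libraries were below every control library in 6 of 7 cases, the exception being ablated library 1. Means were 4.46 ± 1.40 TPM in ablated and 7.35 ± 1.36 TPM in control colon, and the log2 difference was -0.69 (95% interval -1.11 to -0.27) with a limma adjusted p of 0.128. Without ablated library 1 the limma adjusted p was 0.0259 (0.00566 to 0.368 over all 26 alternatives), and the ablated mean was 4.02 ± 0.844 TPM. Copg2, a coat protein gene that overlaps Mest on the opposite strand, had 28.4 ± 9.39 TPM in ablated and 27.2 ± 2.21 TPM in control colon; whether counting separated strands is not given in the sources used here, so reads of such pairs may be shared. The same limit holds for Ube3a with Snhg14, Zrsr1 with Commd1 and Kcnq1ot1 with Kcnq1, whose exons overlap on opposite strands.

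Sgce, the dystonia gene epsilon-sarcoglycan, averaged 15.3 ± 4.43 TPM in ablated and 14.0 ± 2.07 TPM in control colon. Ppp1r9a, the actin-binding neurabin of synapses, was at 9.45 to 12.3 TPM in ablated and 9.06 to 12.5 TPM in control libraries. Neither was called, and their differences were 0.09 and 0.05. Peg10, a retrotransposon-derived gene needed in placenta, was below the minimum at 0.451 ± 0.283 TPM in ablated and 0.473 ± 0.0752 TPM in control colon. Asb4, a maternally expressed ankyrin repeat gene, was also below it at 0.333 ± 0.111 TPM in ablated and 0.163 ± 0.103 TPM in control colon (91 and 32 reads); 5 of 7 ablated libraries exceeded the highest control, and with no minimum its limma adjusted p was 0.302.

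The Dlk1-Dio3 domain holds paternally expressed protein genes and maternally expressed noncoding RNAs, and only 3 noncoding RNAs of its 6 listed genes were tested. None of the 3 was called. Meg3 was at 4.11, 9.95 and 40.1 TPM (lowest, median and highest) in ablated libraries and at 8.66, 15.95, 13.7, 8.35 and 10.9 TPM in control libraries. Rian reached 6.02, 17.6 and 34.4 TPM in ablated libraries and lay at 10.4 to 19.8 TPM in control libraries. Mirg was at 0.536, 1.92 and 8.63 TPM in ablated libraries and at 1.07 to 2.64 TPM in control libraries. The 3 RNAs spread more widely among ablated than among control libraries: ablated library 1 was highest for Meg3 and Mirg, ablated library 6 was highest for Rian, and ablated libraries 4 and 7 were the lowest 2 for each. The mitochondrial share of reads was likewise highest in ablated libraries 1 (18.7%) and 6 (10.4%), with control library 3 next at 10.0%. An epithelium score, made like the pan-neuronal score, was lowest in ablated libraries 1 (-0.65) and 6 (-0.46). It was highest in ablated libraries 7 (0.55) and 4 (0.43). A smooth muscle score was lowest in ablated library 1 (-0.62) and highest in ablated library 6 (1.18). The part of the mitochondrial share and of tissue make-up in these levels was not tested. The log2 differences were -0.02, -0.03 and 0.34 in the order given, with limma adjusted p of 0.997, 0.991 and 0.900.

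The protein genes of the domain were low. Dlk1, a transmembrane ligand of the Notch family that holds back differentiation, averaged 0.572 ± 0.450 TPM in ablated and 0.184 ± 0.0691 TPM in control colon (226 and 53 reads). Its ablated libraries ran from 0.190 to 1.42 TPM with 4 of 7 above the highest control, and with no minimum its limma adjusted p was 0.408. Dio3, which inactivates thyroid hormone, averaged 0.187 ± 0.231 and 0.179 ± 0.0779 TPM in ablated and control colon; without ablated library 1, at 0.621 TPM, the ablated mean was 0.114 ± 0.142 TPM and lay below that of controls. Rtl1, a retrotransposon-derived gene of placenta and muscle, had 28 reads over the ablated and 14 over the control libraries.

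**Figure D4:**
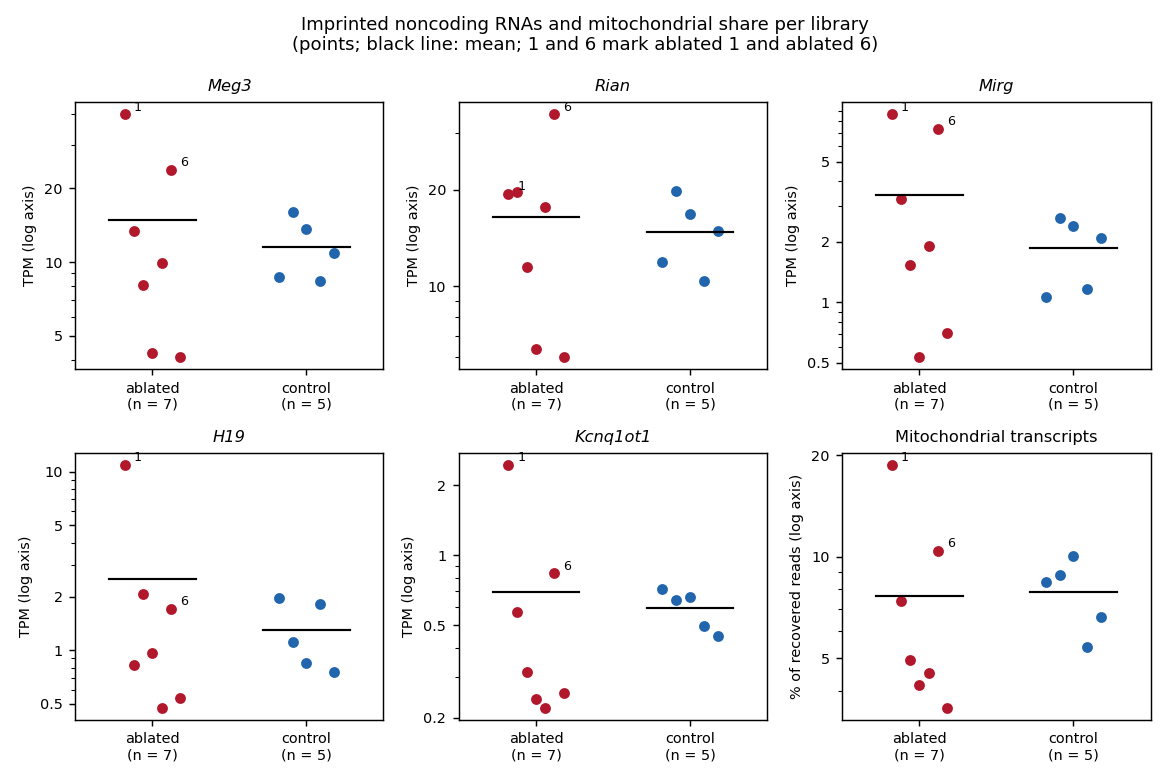
TPM of the noncoding RNAs Meg3, Rian, Mirg, H19 and Kcnq1ot1 on a log axis, with the percent of reads from mitochondrial genes in the last panel; points are libraries and black lines group means. Ablated libraries 1 and 6 are numbered: library 1 is the highest for Meg3, Mirg, H19, Kcnq1ot1 and the mitochondrial share.

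Growth genes of the Igf2 and Igf2r domains were tested in 4 of 4 cases with none called. Igf2, the paternally expressed fetal growth factor, was low in this colon, at 0.970 ± 0.335 TPM in ablated and 0.988 ± 0.227 TPM in control libraries. H19, its maternally expressed noncoding neighbour, had a median of 0.967 TPM in ablated and 1.11 TPM in control libraries, and ablated library 1 stood alone at 10.9 TPM. Igf2r, the receptor that carries IGF2 to the lysosome, was more variable in ablated than in control colon, at 6.18 to 25.0 TPM against 9.34 to 17.1 TPM, with means of 16.7 ± 7.64 and 13.8 ± 2.91 TPM. Airn, the paternally expressed antisense RNA that silences Igf2r, averaged 7.05 ± 1.75 TPM in ablated and 6.58 ± 0.758 TPM in control colon. The wider IGF axis, 14 listed genes of which 13 were tested, had none called either. Its largest difference in means was in the binding protein Igfbp2, at 530 ± 500 TPM in ablated and 119 ± 53.3 TPM in control colon with a limma adjusted p of 0.0988, a gene shown here after its values were seen. Ablated library 6 had 1607 TPM, and without it the ablated mean was 350.3 ± 173 TPM.

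In the Kcnq1ot1 domain on distal chromosome 7, all 5 genes were tested and none was called. Phlda2, a maternally expressed pleckstrin homology gene that limits placental growth, had 4.06, 12.8 and 21.0 TPM (lowest, median and highest) in ablated libraries and 4.87, 6.58, 5.38, 5.83 and 5.15 TPM in the control libraries. Of the 7 ablated libraries, 6 were above the highest control and ablated library 5 was below the lowest. The means were 12.4 ± 5.59 TPM in ablated and 5.56 ± 0.670 TPM in control colon, and the log2 difference was 0.95 (95% interval 0.29 to 1.62) with a limma adjusted p of 0.197. Without ablated library 5 the limma adjusted p was 0.0148 (0.0148 to 0.462 over all 26 alternatives).

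Cdkn1c, the maternally expressed inhibitor of cell division p57, averaged 7.61 ± 2.46 TPM in ablated and 10.0 ± 1.28 TPM in control colon, a difference of -0.42 with a limma adjusted p of 0.456. The organic cation transporter gene Slc22a18 (79.0 ± 8.90 and 74.6 ± 9.19 TPM in ablated and control colon) and the tetraspanin Cd81 (191 ± 34.9 and 217 ± 11.7 TPM in ablated and control colon) were abundant and differed by 0.08 and -0.21. Kcnq1ot1, the paternally expressed noncoding RNA that silences the cluster, had 2.45 TPM in ablated library 1, 0.221 to 0.836 TPM in the other ablated libraries and 0.448 to 0.714 TPM in control libraries.

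Gnas, which encodes the stimulatory G protein alpha subunit, was the most abundant of the 38 genes, at 274 ± 80.3 TPM in ablated and 262 ± 32.0 TPM in control colon. Nnat, the paternally expressed proteolipid neuronatin, averaged 14.1 ± 3.29 TPM in ablated and 10.8 ± 2.76 TPM in control colon, a difference of 0.37 with a limma adjusted p of 0.490. Nnat is known from neurons and neuroendocrine cells. Of the 7 genes of the enteroendocrine list, 1 was called higher, the serotonin enzyme Tph1, where 0.421% of all genes tested were called higher. The log2 differences of the list were positive for 6 and negative for 1, and a link to Nnat was not tested. Blcap, the gene in which Nnat lies, averaged 55.6 ± 11.0 TPM in ablated and 47.8 ± 4.45 TPM in control colon, a difference of 0.20. None of these 3 was called.

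The remaining genes came from smaller domains and none was called. Grb10, a receptor tyrosine kinase adaptor that is expressed from the paternal allele in neurons, averaged 4.24 ± 0.911 TPM in ablated and 4.83 ± 1.02 TPM in control colon. Zrsr1, a splicing factor retrogene inside Commd1, averaged 11.5 ± 3.0 and 9.28 ± 1.5 TPM in ablated and control colon, and the zinc finger gene Plagl1 0.877 ± 0.243 and 0.592 ± 0.0982 TPM in ablated and control colon; in each, 5 of 7 ablated libraries exceeded the highest control, with limma adjusted p of 0.640 and 0.492. Impact, an inhibitor of the stress kinase GCN2 that is enriched in neurons, differed by 0.00 (22.4 ± 4.69 and 22.1 ± 3.06 TPM in ablated and control colon). Inpp5f, an inositol phosphatase, differed by 0.06. Peg3, the zinc finger gene of chromosome 7 that heads its own domain, averaged 1.0 ± 0.36 TPM in ablated and 1.2 ± 0.43 TPM in control colon, and the lowest ablated value, 0.214 TPM, was that of ablated library 1. Its neighbours Usp29 and Zim1 were below the minimum, with Usp29 at 6 reads over the ablated and 27 over the control libraries (0.0124 and 0.0618 TPM on average in ablated and control colon; 0.356 as limma adjusted p with no minimum level) and Zim1 at 20 over the ablated and 9 over the control libraries.

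Imprinted genes outside the 38, listed for comparison with earlier results known, were 46 in number; 43 were found, 25 were tested and none was called, with 6 at an unadjusted p under 0.05 (11.8% of all genes tested). The adenosine monophosphate deaminase Ampd3 was higher in every ablated than in every control library, at 32.0 ± 3.78 and 22.6 ± 2.93 TPM in ablated and control colon with a limma adjusted p of 0.0544, and 0.0451 with no minimum level. Its ranges were 28.1 to 38.0 TPM in ablated and 17.6 to 24.8 TPM in control libraries. For Ampd3 the other alternatives are not given. Ipw, a noncoding RNA of the Prader-Willi region below the minimum, had 0 reads over the ablated and 11 over the control libraries. It entered the fit with no minimum level only through its control reads (limma adjusted p 0.0164), so that p-value cannot be read as a fall. H13, a signal peptide peptidase, was lower in every ablated library, at 25.2 ± 1.58 and 29.4 ± 1.32 TPM in ablated and control colon (22.8 to 27.3 and 28.3 to 31.6 TPM) with a limma adjusted p of 0.265. Of all genes tested, 1.55% lay wholly lower and 1.33% wholly higher. The rest with an unadjusted p under 0.05 had overlapping groups. Their log2 differences were -0.78 (Begain), -0.73 (Ascl2), -0.69 (Kcnq1) and 0.41 (Cobl), with limma adjusted p of 0.225, 0.180, 0.154 and 0.373. Of the 14 factors listed for imprint maintenance, 13 were tested, none was called and 12 of the 13 differences were positive (median 0.19, beside 0.03 over all genes tested). Zfp57 averaged 4.61 ± 4.59 TPM in ablated and 1.78 ± 0.152 TPM in control colon, with 14.0 TPM in ablated library 1 and an ablated mean of 3.05 ± 2.20 TPM without it.

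In the authors' deposited table, made with edgeR per its file name, Nap1l5 was likewise the only one of the 38 genes with a false discovery rate under 0.05, among 306 of 27179 genes; for the nearly unread Usp29 the authors' deposited table gives a log2 fold change of -2.43 and a false discovery rate of 0.332. The authors' deposited table gives Nap1l5 a log2 fold change of -2.18 and a false discovery rate of 0.00206. For Ndn, Mest and Phlda2 the authors' deposited table gives log2 fold changes of -0.93, -0.75 and 1.14, with false discovery rates of 0.142, 0.214 and 0.192.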

How the data were processed

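RNA of 12 colon libraries was sequenced. Per the submitters' processing notes, bcl2fastq 2.17, HISAT, featureCounts and mm10 were used; the strand setting of counting is not given in the sources used here. The authors deposited TPM per gene, and a table of their group comparison that holds log2 fold changes, log2 CPM means, the F statistic as a score, and each gene's p-value with its false discovery rate. That table's design and filter are not given in the sources used here.

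Whole reads were recovered from the TPM by searching the gene length (20 to 150000 bases) at which all libraries hold whole reads within 0.05 read; a length was found for all 22842 genes above 0, and depth was 13.4 to 26.9 M reads. The precision of low genes is limited by their few reads, which are printed beside them. The main test used limma 3.58.1 (R 4.3.3; linear model, then empirical Bayes moderation with a mean-variance trend) on the log2 of TPM plus 0.5, for the 16164 genes that reached 0.5 TPM in 5 libraries or more. It was two-sided, and Benjamini-Hochberg adjustment ran over all these genes. Python 3.11.15 served for ratios and exact permutations (SciPy 1.17.1, pandas 2.3.3, numpy 2.4.6) and for plots (matplotlib 3.10.9).

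All 38 genes are described by domain, with the value in every library for Nap1l5, the listed gene that was called; fuller values for Ndn, Mest, Phlda2 and Meg3 were added after they were seen. The genes and all lists were chosen with earlier results of these data known. Alternatives changed the added constant, the minimum level, the scaling, the variance model, library weights, the library number as block, the count model (voom on recovered reads) and left out single libraries. Smooth muscle, epithelium and mitochondrial covariates were added after seeing the data.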

Additional observations from a re-analysis of the deposited data

Results flagged for a closer look

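In 58 groups of values of the imprinted genes, 4 held a library whose gap to its nearest neighbour was large against the range of its group; chance alone would mark about 1 in 20 groups. H19 was at 10.9 TPM in ablated library 1, where the other ablated libraries lay at 0.477 to 2.08 TPM. Peg3 was at 0.214 TPM in ablated library 1, below the 0.977 to 1.24 TPM of the other ablated libraries. Mkrn3 was at 0.313 TPM in control library 4 and at 0.718 to 0.791 TPM in the other control libraries. Plagl1 was at 0.418 TPM in control library 1 and at 0.620 to 0.659 TPM in the other control libraries. Both values of ablated library 1 come from the library with the highest mitochondrial share (18.7% of reads) and the lowest depth (13.4 M reads); the part of these in the values was not tested.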

How the results depend on the processing

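Nap1l5 was called lower in all 26 alternatives, with log2 differences of -2.17 to -1.65 and limma adjusted p of 0.00106 to 0.0202. Of the 29 tested genes, 25 were called in none of them, and 15 changed sign in at least 1, the largest main difference among these being 0.34 (Mirg). The number of imprinted genes called was 1; it was 3 with a weight per library (Mest, Nap1l5 and Ndn), 2 with the smooth muscle score as covariate (Nap1l5 and Ndn), 3 with the epithelium score and 3 with the mitochondrial share (Mest, Nap1l5 and Phlda2 in both; these 3 covariates were chosen after seeing the data), and 1 to 2 when single libraries were left out, the second being Mest without ablated library 1 and Phlda2 without ablated library 5. Over all genes the count was 231; it was 349 with no minimum level, 1092 with a weight per library, 932 with the epithelium score, 716 with the mitochondrial share, and 80 (without control library 3) to 329 (without ablated library 1) when single libraries were left out; without control library 1, 2, 4 or 5 it was 135, 83, 124 or 114. The cause of these changes was not tested. The share of calls that were higher was 29.4% and moved to 59.9% with a weight per library, 49.2% with the epithelium score, 47.1% with the mitochondrial share, 17.9% with the library number as block and 18.2% with voom on recovered reads. Same-numbered libraries correlated at -0.269 to 0.359 after removal of the group means. Without a range to set these beside, they cannot decide whether the library numbers pair the samples. With the library number as replicate block 84 genes were called, among them Nap1l5. The precision of genes near the minimum is limited by their few reads.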
